A study of Homo sapiens with 6 samples.

Results

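The genes described here are 10 transcriptional repressors and signalling components of the Notch pathway and of the ID family. These are the repressors HES1 and HEY1, the receptors NOTCH1, NOTCH2 and NOTCH3, the Notch ligand JAG1, and the 4 inhibitors of DNA binding ID1, ID2, ID3 and ID4. They are 10 of the 61541 genes listed in each deposited file, found by Ensembl identifier. The set was selected on the measured values of the comparison reported here, so the values of these 10 genes are given as a description and carry no p-value. For the same reason, whether one of them passed the test in a given fit is description only and no evidence that the gene changed. RNA was measured in RCC4, an established human line of clear cell renal carcinoma that is known to lack functional VHL. There were 3 untreated cultures (untreated replicates 1 to 3) and 3 cultures given interferon gamma (IFNγ, 1000 U/mL) and tumour necrosis factor (TNF, 25 ng/mL) for 24 h (treated replicates 1 to 3). Poly(A) RNA was read as native molecules by nanopore direct RNA sequencing, and each replicate was described as a biological replicate that pooled 3 flasks. Because all cultures are of 1 line, the spread between replicates is the spread between cultures of RCC4.

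In Notch signalling, a ligand such as JAG1 on one cell binds a NOTCH receptor on its neighbour, and proteases then release the receptor's intracellular part. That fragment enters the nucleus, joins the DNA-binding protein RBPJ and a Mastermind coactivator, and turns on genes such as HES1 and HEY1, whose products are basic helix-loop-helix repressors. ID proteins are helix-loop-helix proteins without a DNA-binding region, which hold E proteins and related factors off DNA, and their genes are classic targets of bone morphogenetic protein (BMP) signalling. In kidney, Notch and its HES targets are known for their part in patterning the nephron during development.

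Of the 7 genes with enough reads to be tested, the target repressor HES1 and the ligand JAG1 had the most negative log2 fold changes. HES1 was at 26.7 ± 4.43 CPM (counts relative to library size, normalised for composition; SD, n = 3) in untreated and 4.55 ± 1.17 CPM (SD, n = 3) in treated cultures, and JAG1 at 74.4 ± 3.58 and 14.0 ± 6.40 CPM (SD, n = 3 each). NOTCH1 and NOTCH2, the receptors that were detected, had higher means after treatment. ID1, ID2 and ID3 had lower means, with groups that overlapped for ID1 and ID2. HEY1 and ID4 had few counts in untreated libraries and fewer in treated ones, and NOTCH3 had no count in any library. Since RNA came from whole cultures, fewer cells that express a gene and less RNA per cell cannot be told apart.

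Library totals ran from 3626000 to 4406296 counts, and 3 counts, taken as the most that a count of 0 leaves possible, were worth between 0.674 and 0.863 CPM. In edgeR's quasi-likelihood test, 10067 genes passed the filter on low counts, and 819 of them (8.14%) had a Benjamini-Hochberg adjusted p under 0.05, with 562 higher (5.58%) and 257 lower (2.55%) in treated cultures. Scaled by library totals alone, the split was 485 higher and 364 lower, and the median log2 fold change over all genes moved from -0.03 to -0.13. The 3 values of each group did not overlap for 25.9% of the genes tested, 13.9% with higher and 11.9% with lower treated values. Of 10 markers of clear cell renal carcinoma epithelium, 8 had more than 3 counts in some library, including CA9, KRT8 and PAX8, while LRP2 and GGT1, which mark proximal tubule, were at 0 and at no more than 2 counts. The summed level of the list was between 6295 and 7852 CPM in untreated and between 8572 and 11669 CPM in treated libraries. VIM carried most of that sum, at 4592 ± 312.8 and 7283 ± 904.7 CPM, and was called higher (edgeR adjusted p = 0.0274). PAX8 was called lower, at 144.7 ± 16.6 and 83.8 ± 11.5 CPM (SD, n = 3 each; edgeR adjusted p = 0.0316), and the other 6 detected markers were not called. All 6 endothelial markers were at 0 in every library and all 6 leukocyte markers were at 3 counts or fewer, as were 4 of 6 fibroblast and pericyte markers, with COL1A2, COL3A1 and DCN at 0. The summed level of that list, between 54.6 and 74.2 CPM in untreated and between 27.5 and 49.2 CPM in treated libraries, came from COL1A1 and PDGFRB. PDGFRB was called lower (log2 fold change -1.91, edgeR adjusted p = 0.0049). As a check of the labels, 5 cytokine response genes summed to at most 302.1 CPM in untreated and at least 4942 CPM in treated libraries. Untreated replicate 3 had the largest count-weighted exonic length, 4484 bases against 4204 to 4376 in the other libraries. The part of these differences in the results below was not tested.

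The DNA just before the start of HES1, JAG1 and ID3 is shown because these genes, among the 10 with a sequence at hand, differed between groups without overlap in the lower direction with enough reads to be tested. The sequences are from RefSeq on GRCh38.p14, 250 bases that end at the base before the first transcribed base, written 5′ to 3′ on the strand of the gene. Capitals mark the RBPJ core in HES1 (chr3:194135898-194136147, plus strand), the hypoxia response core in JAG1 (chr20:10674000-10674249, minus strand) and the interferon gamma activated site in ID3 (chr1:23559502-23559751, minus strand).
HES1: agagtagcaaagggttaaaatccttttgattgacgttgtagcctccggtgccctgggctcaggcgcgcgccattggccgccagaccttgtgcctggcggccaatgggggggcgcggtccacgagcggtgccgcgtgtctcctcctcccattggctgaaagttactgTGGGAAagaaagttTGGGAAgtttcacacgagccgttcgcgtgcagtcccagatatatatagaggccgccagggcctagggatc
JAG1: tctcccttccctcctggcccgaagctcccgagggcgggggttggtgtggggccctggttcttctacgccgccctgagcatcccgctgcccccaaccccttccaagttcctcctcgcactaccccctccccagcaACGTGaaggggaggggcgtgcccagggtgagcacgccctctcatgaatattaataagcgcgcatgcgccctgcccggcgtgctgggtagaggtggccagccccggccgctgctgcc
ID3: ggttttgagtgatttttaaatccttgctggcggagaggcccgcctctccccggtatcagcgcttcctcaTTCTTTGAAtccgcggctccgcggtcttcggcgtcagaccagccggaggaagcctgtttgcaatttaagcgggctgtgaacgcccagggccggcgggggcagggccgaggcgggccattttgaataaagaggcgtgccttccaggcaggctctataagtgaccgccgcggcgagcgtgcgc
Short motifs were searched on both strands of the RefSeq window that runs from 250 bases before to 50 bases after each start. The window was present for 9 of the 10 genes, and 34796 such windows served as the background. Positions count from the first transcribed base, which is 0. The RBPJ core TGGGAA occurred in 24% of windows, and HES1 was the sole gene of the 9 with it. HES1 held a pair of copies on the plus strand, at -84 to -79 and at -70 to -65, and 3.78% of windows held 2 or more. HES1 also held 4 copies of the N box CACNAG, the element bound by HES proteins. The N box occurred, in any number of copies, in 38% of windows and in 5 of the 9 genes (HES1, NOTCH1, NOTCH2, NOTCH3 and ID1). How many windows held several N boxes was not counted. In NOTCH1 the pair of N box matches overlapped each other, on opposite strands.

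The E box CANNTG, which E proteins bind as dimers, occurred in 68.7% of windows and in ID2 and ID4. The interferon gamma activated site TTCNNNGAA occurred in 7.67% of windows and in ID3 at -181 to -173 and NOTCH3 at 1 to 9. None of the 9 genes held the core of the interferon stimulated response element, searched as GAAANNGAA (8.11% of windows), or the NF-kappaB motif, searched as GGGANTTTC (1.29% of windows). The BMP responsive SMAD element GGCGCC occurred in 19.2% of windows and in NOTCH1. The hypoxia response core ACGTG occurred in 21.4% of windows and in JAG1 at -116 to -112, ID2 and ID1. No match overlapped a match to a different motif. A match is a string of letters in the window and not evidence that a factor binds there, and a motif without a match says nothing of sites outside the window.

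**Figure D1:**
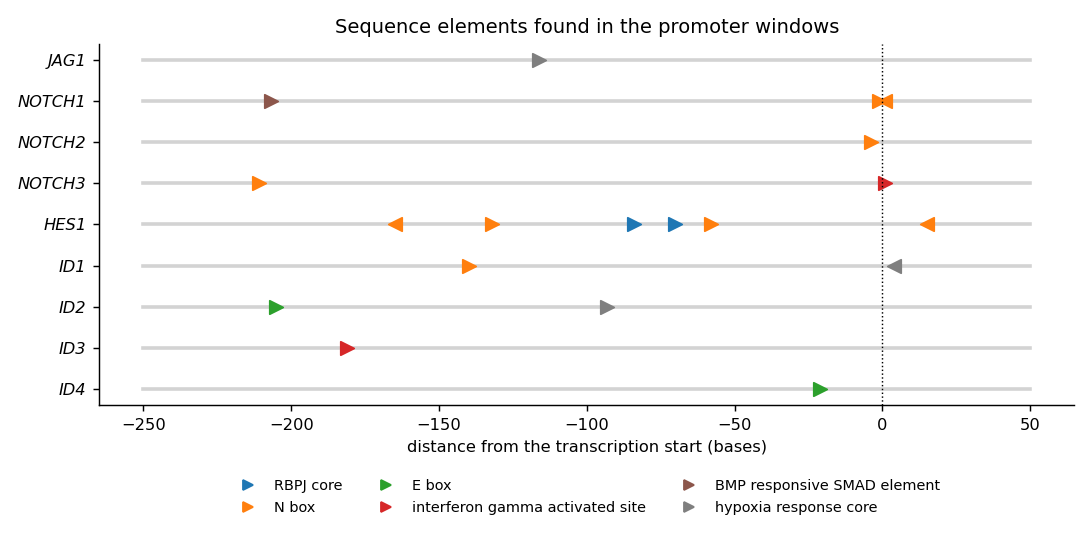
Positions of the motif matches, in bases from the first transcribed base (x axis), for 9 genes (rows). Each symbol is 1 match, its colour gives the motif and its direction the strand, and the HES1 row carries the only pair of RBPJ cores.

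JAG1 (ENSG00000101384, chr20:10637684-10673999 on the minus strand, GRCh38) encodes a transmembrane ligand of the Notch receptors and is the single ligand among the 10 genes. It had 301, 284 and 317 counts in untreated replicates 1 to 3, and 39, 42 and 75 in treated replicates 1 to 3. As CPM these were 78.5, 73.1 and 71.7 without and 11.2, 9.43 and 21.3 with the cytokines. The untreated libraries lay close together and every treated library lay far below them, with treated replicate 3 the highest of its group. The treated mean was 18.8% of the untreated mean, and the log2 fold change was -2.42 (SE 0.30).

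The other Notch ligands, JAG2, DLL1, DLL3 and DLL4, had at most 3 counts in any library. JAG1 was the only ligand of the family with more than 3 counts in a library, and it had more in all 6.

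HES1 (ENSG00000114315, chr3:194136148-194138732 on the plus strand) encodes the best known target of Notch, a repressor that also limits its own transcription. Its counts were 103, 86 and 137 in untreated and 20, 20 and 12 in treated replicates 1 to 3. The corresponding levels were 26.9, 22.1 and 31.0 CPM and 5.75, 4.49 and 3.41 CPM. The lowest untreated library was above the highest treated library, and untreated replicate 3 was the highest of all. The treated mean was 17.1% of the untreated mean, a log2 fold change of -2.55 (SE 0.29).

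HEY1 (ENSG00000164683, chr8:79762371-79767857 on the minus strand) encodes a related repressor that Notch induces in vessels and other tissues. Its counts were 6, 9 and 8 without and 2, 1 and 1 with treatment, too few to pass the filter. The levels were 1.56, 2.32 and 1.81 CPM against 0.575, 0.225 and 0.284 CPM. All treated libraries were under the limit that a count of 0 allows, and all untreated libraries were above it. Over the summed counts, 23 against 4, the ratio of treated to untreated was 0.184 (95% interval 0.0464 to 0.540, exact, counting error only).

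**Figure D2:**
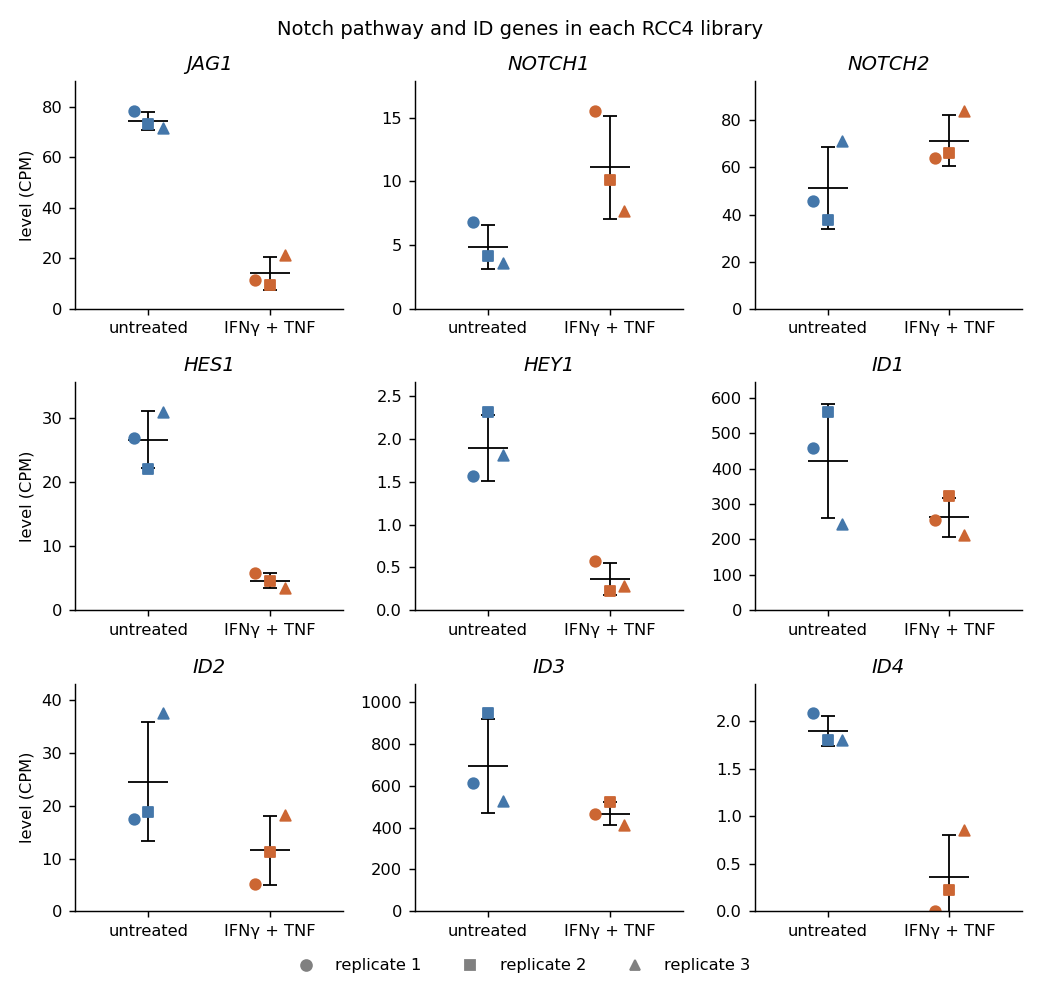
Level of 9 genes in each library (y axis, CPM from 0, a separate scale for each panel) in untreated and IFNγ and TNF treated cultures. Points are libraries and bars the mean ± SD (n = 3), with the ID4 treated bar cut at 0; NOTCH3, at 0 in all libraries, is not drawn, and the groups separate for HES1, JAG1, HEY1, ID3, ID4 and NOTCH1.

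NOTCH1 (ENSG00000148400, chr9:136494433-136546048 on the minus strand) had 26, 16 and 16 counts in untreated replicates 1 to 3, and 54, 45 and 27 with treatment. Its levels were 6.78, 4.12 and 3.62 CPM without and 15.5, 10.1 and 7.67 CPM with the cytokines. The groups did not overlap, and the lowest treated library lay just above the highest untreated one. The means were 4.84 ± 1.70 and 11.1 ± 4.03 CPM (SD, n = 3 each), and the log2 fold change was 1.20 (SE 0.39), which did not pass the test.

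NOTCH2 (ENSG00000134250, chr1:119911553-120100779 on the minus strand), the receptor known for its part in nephron development, had 175, 146 and 314 counts before and 223, 294 and 296 after the cytokines, in replicate order. That was 45.6, 37.6 and 71.0 CPM against 64.2, 66.0 and 84.1 CPM. Untreated replicate 3 lay within the treated range and the other untreated libraries below it. The log2 fold change was 0.47 (SE 0.26) and did not pass the test. Without untreated replicate 3 it was 0.77 and passed, and without untreated replicate 2 it was 0.29 and did not pass. Reads of NOTCH2 could be confused with those of its human-specific partial copies. The 4 NOTCH2NL genes held 4 counts in all 6 libraries together, which cannot show whether reads of the copies were counted to NOTCH2. That was not tested.

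NOTCH3 (ENSG00000074181, chr19:15159038-15200995), a receptor typical of vascular smooth muscle and pericytes, had 0 counts in all 6 libraries, and NOTCH4, typical of endothelium, had at most 1 in any library. NOTCH2 was the most abundant receptor in both conditions. Per kilobase of exonic sequence, it was at 3.07 ± 1.04 CPM in untreated and 4.27 ± 0.656 CPM in treated libraries, against 0.386 and 0.886 CPM for NOTCH1.

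ID1 (ENSG00000125968, chr20:31605283-31606515 on the plus strand) had 1762, 2178 and 1080 counts without and 882, 1431 and 744 counts with the cytokines. The levels were 459.4, 560.5 and 244.2 CPM and 253.8, 321.4 and 211.3 CPM. Untreated replicate 3 lay inside the treated range and the groups overlapped. The treated mean was 62.2% of the untreated mean, with a log2 fold change of -0.68 (SE 0.30) that did not pass the test. Without untreated replicate 3 the value was -0.97 and passed, and without untreated replicate 2 it was -0.42 and did not pass.

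ID3 (ENSG00000117318, chr1:23557926-23559501 on the minus strand) was the most abundant of the 10 genes. It had 2344, 3678 and 2323 counts without and 1620, 2323 and 1449 counts with the cytokines, or 611.1, 946.6 and 525.3 CPM against 466.1, 521.7 and 411.5 CPM. The groups did not overlap, but untreated replicate 3 and treated replicate 2 were almost level. The treated mean was 67.2% of the untreated mean, with a log2 fold change of -0.57 (SE 0.23) that did not pass the test. It was -0.28 without untreated replicate 2, and -0.74, past the threshold, without untreated replicate 3.

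ID2 (ENSG00000115738, chr2:8678845-8684461 on the plus strand) had 67, 73 and 166 counts without and 18, 50 and 64 counts with treatment. Its levels were 17.5, 18.8 and 37.5 CPM and 5.18, 11.2 and 18.2 CPM. The groups overlapped, since treated replicate 3 lay between untreated replicates 1 and 2. The log2 fold change was -1.10 (SE 0.46), which did not pass the test, and it was -0.66 without untreated replicate 3.

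ID4 (ENSG00000172201, chr6:19837370-19842197 on the plus strand) had 8, 7 and 8 counts without and 0, 1 and 3 counts with the cytokines. The untreated levels of 2.09, 1.80 and 1.81 CPM lay above the treated levels of 0, 0.225 and 0.852 CPM, and the gene did not pass the filter. The summed ratio, from 23 against 4 counts, was 0.184 (95% interval 0.0464 to 0.540, exact, counting error only), or -2.44 on the log2 scale. Of the 4 treated counts, 3 were in treated replicate 3, without which the log2 ratio was -3.91.

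Of the 7 genes that passed the filter, 2 (28.6%) were called, both lower, where 8.14% of all genes tested were called and 2.55% were called lower. The median log2 fold change of the 7 was -0.68, against -0.03 over all genes tested. Groups did not overlap for 1 gene in the higher and 3 genes in the lower direction, where the shares over all genes tested were 13.9% and 11.9%. The genes were chosen by this same contrast, so these counts describe the choice and are no measure of how the pathway behaved. None of the 10 genes shared exonic bases with another gene on its strand.

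**Figure D3:**
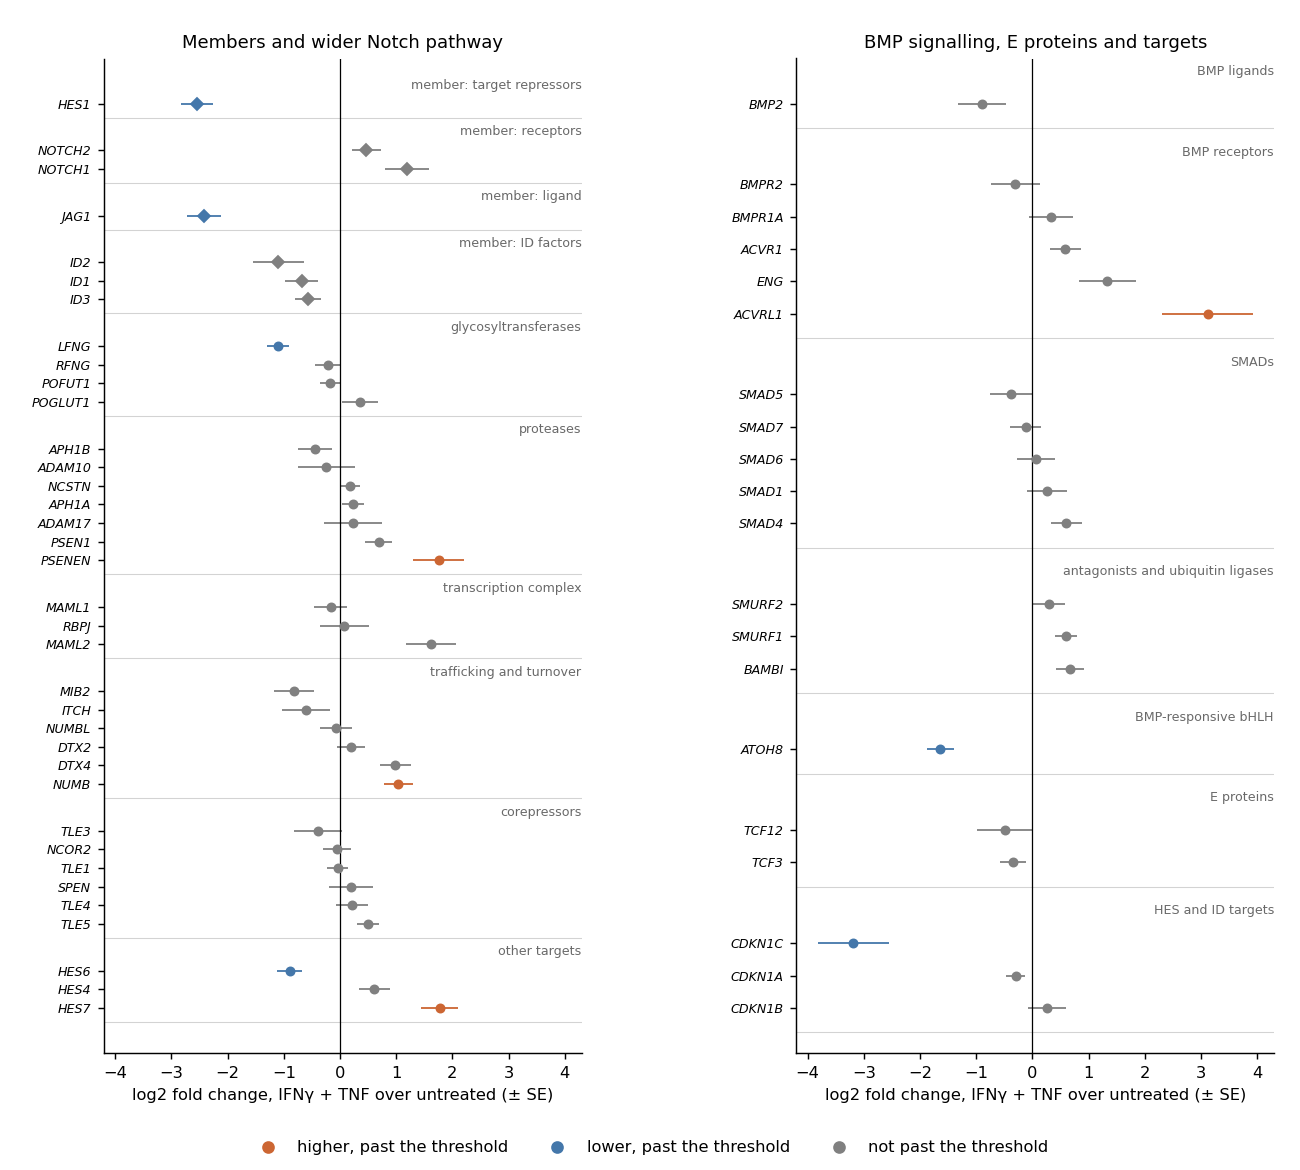
Log2 fold change, treated over untreated, ± SE (x axis) for the tested genes of the set and of a wider pathway list, grouped by role (rows). Diamonds are the genes of the set and circles the others; orange and blue mark genes called higher and lower and grey those not called, and CDKN1C, HES1, JAG1 and ATOH8 lie farthest to the left.

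The order of the levels, per kilobase of exonic sequence, was led by ID3 and ID1 in both conditions. Division by exonic length places long genes lower, and the order below them depends on it. Each read here is 1 native molecule, so the undivided means are the more direct measure of abundance. Whether the counts also vary with exonic length was not tested. Undivided, untreated means were 74.4 CPM for JAG1, 51.4 for NOTCH2, 26.7 for HES1 and 24.6 for ID2. Treated means were 71.4 CPM for NOTCH2, 14.0 for JAG1, 11.5 for ID2 and 4.55 for HES1. In untreated cultures ID3 was at 464 ± 149 and ID1 at 342 ± 131 CPM per kb (SD, n = 3 each), and their ranges overlapped. HES1 at 12.9 ± 2.15, ID2 at 11.1 ± 5.07 and JAG1 at 8.0 ± 0.386 CPM per kb followed, and each overlapped its neighbour in that order. ID4, NOTCH1 and HEY1 were close to one another at 0.490, 0.386 and 0.346 CPM per kb. Undivided, NOTCH1 at 4.84 CPM was above ID4 and HEY1, both at 1.90 CPM. In treated cultures ID3 (312 ± 36.8) and ID1 (213 ± 45 CPM per kb) still led, but the means of HES1 (2.21 ± 0.570) and JAG1 (1.5 ± 0.688 CPM per kb) were below those of ID2 (5.21 ± 2.94) and NOTCH2. The step from NOTCH2 to HES1 in treated cultures had no overlap, and neither had the step from ID1 to the genes below it.

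The genes differed in how far their replicates spread. The chi-square of the 3 counts of a group, divided by its 2 degrees of freedom, is near 1 where counting noise alone separates the libraries. In untreated libraries JAG1 had 0.692, against a median of 9.47 over the 2340 genes with similar counts. HES1 had 3.01 against 4.33 over 3305 genes, but 5.49 against 4.18 when libraries were scaled by their totals alone. ID1 had 265 against 46.7, ID3 had 291 against 65.8, and ID2 had 21.1 against 4.11. The untreated chi-square of these ID genes was above the median of genes as abundant. In treated libraries ID1 was at 46.3 against 17.7, ID3 at 25.5 against 28.2 (41 against 19.7 with totals alone) and ID2 at 12.8 against 2.34, while JAG1 was at 11.2 against 2.50. NOTCH2 was at 24.5 against 6.99 in untreated and at 6.15 against 6.40 in treated libraries (7.37 against 5.25 with totals alone).

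The libraries behind this spread were not the same for every gene. Untreated replicate 3 was the highest of its group for HES1, NOTCH2 and ID2 and the lowest for ID1, ID3, JAG1 and NOTCH1. Untreated replicate 2 was the highest for ID1 and ID3. Among treated libraries, replicate 2 was the highest and replicate 3 the lowest for ID1 and ID3, and replicate 3 was the highest for JAG1, NOTCH2 and ID2.

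**Figure D4:**
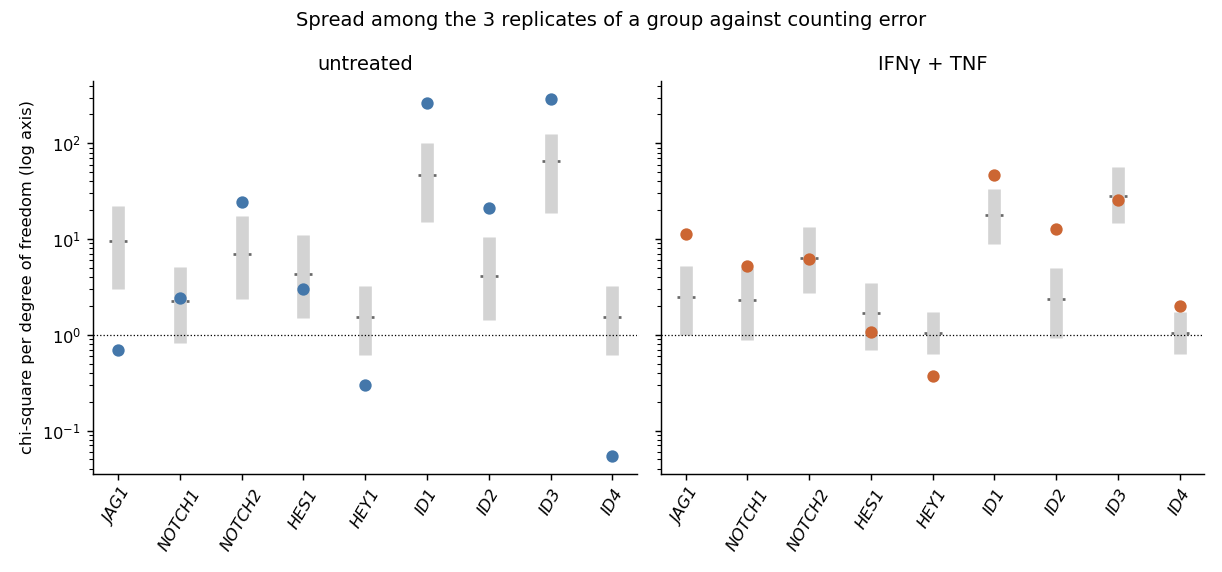
Chi-square per degree of freedom among the 3 replicates of each group (y axis, log scale) for each gene. Dots are the genes, grey bars the interquartile range and dashes the median of genes with similar counts, and the dotted line at 1 marks counting noise alone; untreated ID1 and ID3 stand highest at 265 and 291.

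The rest of the Notch pathway was read from a list of 48 other genes, of which 29 were tested. Of these, 3 were called higher and 2 lower (17.2%, against 8.14% of all genes tested), and the median log2 fold change was 0.17. The calls were few and varied with the libraries used: leaving out untreated replicate 2 or treated replicate 3 left 1 call each, and leaving out untreated replicate 3 gave 7. In the list, 4 genes had no count in any library, among them the classic targets HES5 and HEY2.

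LFNG, a glycosyltransferase that changes which ligands a Notch receptor answers to, was at 166.1, 195.8 and 142.2 CPM in untreated and 84.0, 85.3 and 65.9 CPM in treated libraries. It fell by 1.10 on the log2 scale (SE 0.20; adjusted p = 0.00826 by edgeR's quasi-likelihood test), and the groups did not overlap. The adjusted p by the same test was 0.0562 without untreated replicate 2 and 0.0546 without treated replicate 3. The other tested glycosyltransferases of the list were not called.

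HES7, a HES family repressor known from the clock that segments the embryo, went the other way from HES1. It was at 6.78, 7.46 and 3.62 CPM in untreated and 24.5, 17.1 and 19.6 CPM in treated libraries, and rose by 1.77 on the log2 scale (SE 0.32, adjusted p = 0.00939 by edgeR's quasi-likelihood test). It passed the threshold in all 13 alternative fits, with values from 1.5 to 1.97. HES6, which is known to antagonise HES1, was at 44.6, 51.0 and 32.6 CPM and at 24.5, 20.2 and 24.1 CPM. It fell by 0.90 (SE 0.23, adjusted p = 0.0456 by edgeR), a call that 5 of the 13 alternative fits made, with an edgeR adjusted p of up to 0.215 (without untreated replicate 2). HES4, the most abundant other target, was at 90.5 ± 29.3 and 138.4 ± 24.8 CPM (SD, n = 3 each) and was not called (log2 fold change 0.61, edgeR adjusted p = 0.25).

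A further pair of Notch targets had too few counts to pass the filter. NRARP, a small protein that feeds back on the Notch complex, had 8, 6 and 6 counts without and 0, 2 and 1 counts with the cytokines, a summed ratio of 0.159 (95% interval 0.0303 to 0.536, exact). HEYL, a relative of HEY1, had 10, 8 and 15 against 9, 2 and 1 counts, a summed ratio of 0.386 (95% interval 0.181 to 0.766, exact). Both intervals cover counting error only. With every gene of at least 1 count tested, neither was called (edgeR adjusted p = 0.0661 for NRARP and 0.314 for HEYL). The treated libraries were lower than every untreated one for NRARP, whereas treated replicate 1 overlapped the untreated group for HEYL.

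NUMB, which sends Notch receptors to degradation, was at 7.56, 6.18 and 7.24 CPM in untreated and 14.7, 15.7 and 12.8 CPM in treated libraries. It rose by 1.04 on the log2 scale (SE 0.26, edgeR adjusted p = 0.0402), a call made in 6 of 13 alternative fits, with an adjusted p of up to 0.174 without untreated replicate 2. PSENEN, a subunit of the gamma-secretase complex that cuts the receptor, was at 2.87, 1.03 and 2.04 CPM against 8.34, 7.41 and 4.54 CPM. It rose by 1.76 (SE 0.45, edgeR adjusted p = 0.0461), a call made in 7 of 13 alternative fits, with an adjusted p of up to 0.178, again without untreated replicate 2. Another gene shares 21.0% of the exonic bases of PSENEN on the same strand, so the counting could have left some of its reads out. APH1A, the most abundant protease gene of the list, was at 213.3 ± 32.3 and 250.6 ± 39.6 CPM (SD, n = 3 each). It was not called (log2 fold change 0.23, edgeR adjusted p = 0.609).

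The 3 tested genes of the nuclear complex were not called. RBPJ had a log2 fold change of 0.08 (edgeR adjusted p = 0.959) and MAML1 one of -0.17 (edgeR adjusted p = 0.852). MAML2 was at 1.82, 1.29 and 1.36 CPM in untreated and 2.88, 4.49 and 6.53 CPM in treated libraries, groups that did not overlap (log2 fold change 1.62, edgeR adjusted p = 0.0625, or 0.0373 with every gene of at least 1 count tested). TLE5, the most abundant of the corepressor genes that HES proteins can recruit or that antagonise that recruitment, was at 336.5 ± 44.3 and 475.7 ± 81.1 CPM (SD, n = 3 each; log2 fold change 0.50, edgeR adjusted p = 0.176). None of the 6 tested corepressor genes passed the threshold.

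Genes around the ID proteins were read from a list of 33 BMP pathway genes, E proteins and known targets, of which 20 were tested. In this list 1 gene was called higher and 2 lower (15%, against 8.14% of all genes), and the median log2 fold change was 0.16. Leaving out treated replicate 2 or treated replicate 3 left 1 call.

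ATOH8, a helix-loop-helix factor that responds to BMP signals in several cell types, was at 33.9, 55.1 and 46.6 CPM in untreated and 16.7, 14.1 and 12.8 CPM in treated libraries. It fell by 1.64 on the log2 scale (SE 0.25, edgeR adjusted p = 0.00369), without overlap between the groups, and was called in all 13 alternative fits. The BMP type I receptor ACVRL1, best known from endothelium, whose 6 markers were at 0 in every library, was at 1.56, 0 and 0.904 CPM against 3.45, 4.94 and 13.9 CPM. It rose by 3.12 (SE 0.82, edgeR adjusted p = 0.0498), with 49 of its 83 treated counts in treated replicate 3. The log2 fold change was 2.32 without treated replicate 3 (edgeR adjusted p = 0.22) and 3.90 without untreated replicate 1 (edgeR adjusted p = 0.0263). The edgeR call was also lost without untreated replicate 2 (adjusted p = 0.121), without treated replicate 2 (adjusted p = 0.0876) and with library totals alone (adjusted p = 0.074). With limma voom the gene was not called either (limma voom adjusted p = 0.0735), and 8 of the 13 alternative fits made the call.

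CDKN1C, a cyclin-dependent kinase inhibitor gene known to be repressed by HES1, was at 20.9, 17.8 and 84.8 CPM in untreated and 4.89, 3.14 and 5.68 CPM in treated libraries. Untreated replicate 3 held far more of it than any other library. It fell by 3.19 (SE 0.64, edgeR adjusted p = 0.0154), and without untreated replicate 3 it fell by 2.095 (edgeR adjusted p = 0.00122). The edgeR call was lost without any 1 treated replicate, with adjusted p-values from 0.0553 to 0.0855. With limma voom the gene was not called either (limma voom adjusted p = 0.057), and 9 of the 13 alternative fits made the call. CDKN1A, another HES1 and E protein target, was at 179.2 ± 9.4 and 146.1 ± 18.3 CPM (SD, n = 3 each) and was not called (edgeR adjusted p = 0.402).

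The E protein TCF3, a partner that ID proteins hold off DNA, was at 87.4 ± 15.0 CPM in untreated and 68.8 ± 17.7 CPM in treated cultures (SD, n = 3 each; log2 fold change -0.35, edgeR adjusted p = 0.504). BMP2 had a log2 fold change of -0.90 (edgeR adjusted p = 0.291) and BMP4 had at most 4 counts in any library. The receptor ACVR1 was at 0.59 (edgeR adjusted p = 0.299) and the inhibitory SMAD7 at -0.12 (edgeR adjusted p = 0.894) on the log2 scale. None of the 5 tested SMAD genes was called. SMURF1, the most abundant gene among the antagonists and ubiquitin ligases of the list, was not called either (log2 fold change 0.59, edgeR adjusted p = 0.12).

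Genes whose levels followed those of HES1 and ID3 most closely over the 6 libraries were sought over the 6744 genes whose mean level reached 10 CPM, by Pearson's r of log2 CPM, given as a description. CXXC5, a zinc finger gene that answers to BMP signals in some cells, was the closest to HES1, with r = 0.997 over 6 libraries, followed by GEMIN8 (0.994) and VSIR (0.992). CXXC5 was at 233.6, 226.0 and 254.8 CPM in untreated and 131.8, 130.3 and 117.6 CPM in treated libraries, a log2 fold change of -0.91. GEMIN8 had a log2 fold change of -0.39 and VSIR one of -0.54, and neither was called. For ID3 the closest were SKP2 (0.983), PCCA-DT (0.958) and MSX2 (0.952). Their log2 fold changes were -0.54, -0.25 and -0.44, and none of them was called. All 6 libraries enter every such r, and the difference between the groups contributes to it. These genes were picked as the highest r among 6744, so high values come in part from the choice itself.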

How the data were processed

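Direct RNA nanopore libraries were made from 500 ng of poly(A) RNA of 3 untreated and 3 treated RCC4 cultures and run for 72 h, per the labels' protocols. The authors deposited a table of raw read counts by gene, made with featureCounts 2.0.1 in long-read, strand-specific mode on Ensembl 105 exons (GRCh38), per the file headers. A read that overlaps several genes on the same strand is left out under the default settings of this counter. The submitters' processing notes list minimap2 2.24, SAMtools 1.16 and featureCounts 2.0.0 without roles. The headers' alignment names contain "dmso" although no vehicle appears in the labels, and groups were taken from the sample titles. Exonic lengths (the Length column, a number of bases) are also the authors' deposited values. Gene symbols were taken from a name table for 61369 identifiers and from GENCODE 29 for 159, and 13 stayed unnamed.

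Counts were tested with edgeR 4.0.16 (R 4.3.3) by the quasi-likelihood F test, with TMM normalisation, filterByExpr and Benjamini-Hochberg adjustment over all genes tested at 0.05. CPM values divide counts by the library total times its TMM factor. The SE was approximated from the size of the log2 fold change over the root of its F statistic. Intervals of summed ratios are exact conditional binomial intervals at 95%, over counts pooled across replicates, and cover counting error alone. Similar counts means a mean count within a factor of 2 in that group. Log2 CPM for the likeness of genes used a prior count of 2.

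The alternatives were DESeq2 size factors, library totals alone, every gene with at least 1 count, at least 10 counts in 3 libraries, limma voom (3.58.1), DESeq2 1.42.0, a block for the replicate number and leaving out each of the 6 libraries. The fitting script was tested on simulated counts with 200 genes changed, in equal numbers by 4-fold and by 2-fold. edgeR recovered 99 of them, 81 with a 4-fold and 18 with a 2-fold change, and made 9 false calls. A gene that was not called can therefore still differ between the groups. The 10 genes and both pathway lists were chosen with earlier results of these data known. The genes named from the lists are those called, those with the highest mean level in each role, and the closest 3 genes to HES1 and ID3; other list members named were chosen after their values were seen.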

Additional observations from a re-analysis of the deposited data

How the results depend on the processing

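Over the 13 alternatives, log2 fold changes ran from -2.73 to -2.38 for HES1 and from -2.84 to -2.14 for JAG1. The other tested genes of the set kept their direction, from 0.89 to 1.53 for NOTCH1, 0.29 to 0.77 for NOTCH2, -0.97 to -0.42 for ID1, -1.56 to -0.66 for ID2 and -0.74 to -0.28 for ID3. With every gene of at least 1 count, NOTCH1 and ID2 passed the threshold. Genes called numbered 819 in the test reported, 1328 with every gene of at least 1 count and 1513 with the replicate block. Leaving out a library gave from 455 genes (without treated replicate 3) to 1178 (without untreated replicate 3), with 465 without untreated replicate 2. The wider Notch list had 5 calls in the test reported, 3 with library totals alone, 9 with the replicate block, 3 with limma voom, and from 1 to 7 when a library was left out. The BMP and E protein list had 3 calls, or 1 with limma voom and from 1 to 3 when a library was left out. When a library was left out, the log2 fold change of MAML1 ranged from -0.450 to 0.024, of DTX2 from -0.028 to 0.354 and of SMAD7 from -0.237 to 0.18, so that each changed sign in at least 1 of these fits. None of these 3 genes was called in the test reported, and the cause of these changes was not tested.

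Replicate numbers are shared by the groups, but nothing in the labels ties them. The correlation of the deviations of same-numbered libraries was 0.651, -0.0037 and 0.374, and untreated replicate 2 correlated best with treated replicate 1 (0.249), so the block was not taken as a pairing. With the block, NOTCH1, ID1, ID2 and ID3 passed the threshold, as did HES4 (0.65, edgeR adjusted p = 0.0483). Depth limits HEY1, ID4, NRARP and HEYL, whose treated libraries held 9 counts or fewer.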
